A study of Rattus norvegicus with 9 samples.

Results

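The genes described here are a listed set of 34 ribosome biogenesis and RNA polymerase I (Pol I) genes together with the growth regulator Myc. They were read by symbol from a table of read counts in neonatal rat ventricular myocytes, heart muscle cells taken from newborn rats and kept in primary culture. Of the 34 symbols, 33 had a row among the 17327 rows of the table (Tsr1 had none), and 32 were among the 11873 genes with enough reads to be tested. The remaining gene, Nhp2, was listed at 0 in 8 of 9 samples and at 2 reads in IGF1 replicate 2. Whether these counts reflect its expression was not tested. Levels are given as CPM, reads scaled to the size of each library. A count of 0 allows up to 0.0582 to 0.103 CPM in a sample, taking 3 reads as the limit and covering counting error only. The cultures received vehicle, phenylephrine at 50 µM, an agonist of alpha-adrenergic receptors, or the growth factor IGF1 at 10 nM, with 3 samples in each group and a treatment time of 48 hours. The labels name no strain or number of animals and do not say whether samples of a group were separate cultures, so the p-values cover only the variation among the samples deposited, and this variation may be technical.

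Ribosome biogenesis begins in the nucleolus, where Pol I transcribes the ribosomal RNA precursor. Small nucleolar ribonucleoproteins (snoRNPs) of the box C/D and box H/ACA classes guide chemical modification of this precursor, and large sets of assembly factors then cut it and build the small and large ribosomal subunits. Myc is a transcription factor that binds the E-box sequence with its partner Max and is known to activate many genes of this pathway. Cardiac hypertrophy is growth of heart muscle cells by enlargement, and a higher output of ribosomes is part of that growth.

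Total counts ran from 31274396 to 48505265 per sample, so that 1 CPM rested on 29.1 to 51.6 reads. Tested members had 52 or more reads in every sample, Heatr1 being the lowest, and a median of 2011. IGF1 replicate 1 stood apart from the other IGF1 samples. A chi-square comparison of counts gave 80.6 and 83.3 per degree of freedom in its pairs with the other IGF1 samples, against 2.97 to 7.17 in every other pair within a group. It held the highest level of its group in 30 of the 32 tested members, whereas 41.3% of all tested genes were highest there, and the members' median was 0.20 (log2) above the mean of the other IGF1 samples. For IGF1 against vehicle, the value without this sample is given for each member that it moved by more than 1.5 times or whose call it changed. The labelled cell type was checked with its markers: Tnnt2, a troponin of heart muscle, lay between 7119 and 11945 CPM in all samples, while the endothelial gene Pecam1 lay between 0.735 and 2.15 CPM and the leukocyte gene Ptprc between 3.26 and 5.27 CPM. Some other endothelial and leukocyte markers were higher, and the tested markers summed to 28.3 to 78.4 CPM and 66.9 to 87.7 CPM. The fibroblast collagen gene Col1a1 lay between 3064 and 3791 CPM, so the cultures also held RNA of such cells. The smooth muscle gene Acta2 lay between 725 and 1214 CPM. In bulk samples, fewer cells of a type and less RNA per cell cannot be told apart.

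Phenylephrine raised most members, and IGF1 did not move them one way. With phenylephrine, 27 of 32 tested members were higher than with vehicle, 2 were lower and 3 did not pass the threshold (edgeR, Benjamini-Hochberg adjusted p under 0.05), where 27.9% of all tested genes were higher and 28.9% lower (56.8% in either direction). The members' median log2 fold change was 0.39, beside -0.03 over all genes tested. Of the members 19 rose over 1.25-fold, as did 1925 of all 11873 tested genes. In 27 members all 3 phenylephrine samples lay above all 3 vehicle samples, as in 32.6% of all genes. With IGF1, 7 members were higher, 9 were lower and 16 did not pass, where 24.7% of all genes were higher and 23.4% lower (48.1% in either direction), and the members' median was 0.01 beside -0.00 over all genes. No member rose over 1.25-fold with IGF1, and 4 fell by more than that. Of all 11873 tested genes, 1533 rose and 1566 fell beyond that limit. Tested directly, 28 of 32 members were higher with phenylephrine than with IGF1 and none was lower, where 27.1% of all genes were higher and 27.1% lower (54.2% in either direction), with a median of 0.38 beside -0.00. At an unadjusted p under 0.05, 29 members passed in that comparison, beside 7003 of all 11873 tested genes. DESeq2 and limma-voom each gave 28 members higher and 0 lower there.

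**Figure D1:**
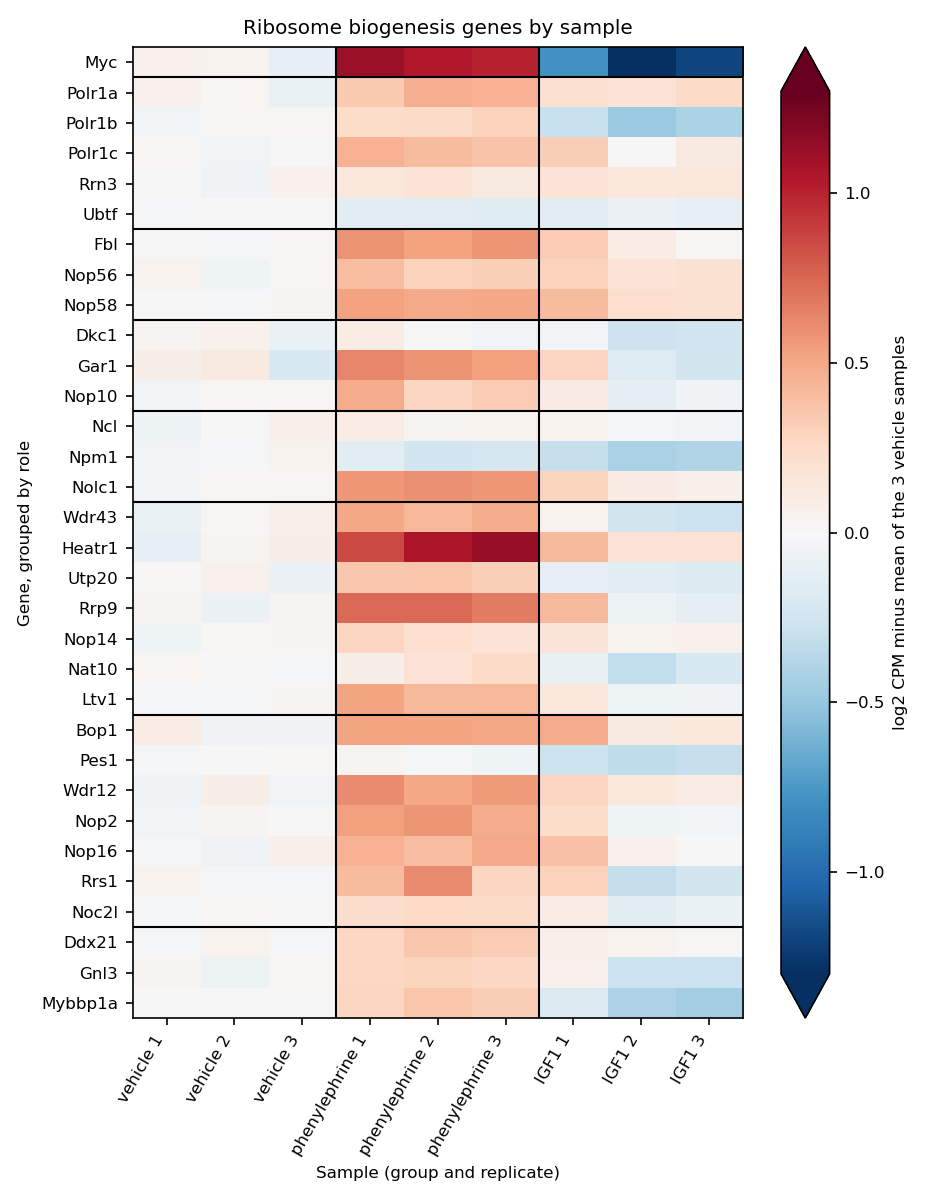
Log2 CPM of each of the 32 tested members (rows, grouped by role) in each of the 9 samples (columns), as the difference from the mean of the 3 vehicle samples, with colours saturating at the ends of the scale. The phenylephrine columns lie above all vehicle columns for 27 members, and IGF1 replicate 1 is the highest of the IGF1 columns in 30 members.

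The counts depended on scaling and, for IGF1, on single samples. When libraries were scaled by their totals alone, the all-gene median for phenylephrine went from -0.03 to -0.22, and 20 members were higher and 5 lower. The members' median then stood 0.42 above that of all genes, as it did in the main analysis. Under that scaling IGF1 gave 2 members higher and 12 lower, with medians of -0.08 for the members and -0.08 for all genes. Since this scaling moved the median of all genes as well, these counts alone show no fall particular to the members. The direct comparison then gave 23 higher and 1 lower, with medians of 0.27 and -0.11. The calls that this scaling ended were those of Polr1b, Rrn3, Nop14, Nat10, Rrs1, Noc2l and Gnl3 with phenylephrine, of Polr1a, Rrn3, Nolc1, Bop1 and Wdr12 with IGF1, and of Polr1a, Dkc1, Npm1, Nop14 and Bop1 in the direct comparison. Without IGF1 replicate 1, IGF1 gave 6 members higher and 13 lower, with a median of -0.06, and the direct comparison gave 30 higher and none lower. Without vehicle replicate 2 or 3, IGF1 gave 4 members higher in each case. Across the fits without 1 sample, 2394 to 3292 of all tested genes were higher and 2408 to 3194 lower with IGF1. In the direct comparison these were 2794 to 3662 and 2876 to 3638.

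A script searched the 250 bases before the start site of each gene (RefSeq, build GRCr8) for the E-box CACGTG, a palindrome that reads the same on both strands. Of 30 listed genes with a promoter in that table, 6 held it, or 20%, beside 7.81% of the 9417 promoters of tested genes and 5.59% of all 33469 promoters of that length. It occurred in 13 of 95 promoters of the further biogenesis genes described below, or 13.7%. The 30 include Nhp2 and Tsr1, which were not tested for expression changes. The 6 are shown because they are the members in which the letters of the Myc site occur, with up to 50 bases on each side, ending at the start site at the latest. They are written on the gene's strand, with the E-box in capitals:

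Utp20: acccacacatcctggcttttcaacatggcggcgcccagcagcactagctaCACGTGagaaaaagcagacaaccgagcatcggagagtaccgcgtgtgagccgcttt

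Ltv1: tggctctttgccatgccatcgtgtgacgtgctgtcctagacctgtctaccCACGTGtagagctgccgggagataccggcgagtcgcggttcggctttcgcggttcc

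Gnl3: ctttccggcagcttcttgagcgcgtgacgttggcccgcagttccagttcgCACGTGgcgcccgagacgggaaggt

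Mybbp1a: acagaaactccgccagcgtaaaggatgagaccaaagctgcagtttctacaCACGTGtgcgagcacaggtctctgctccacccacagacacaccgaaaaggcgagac

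Pes1: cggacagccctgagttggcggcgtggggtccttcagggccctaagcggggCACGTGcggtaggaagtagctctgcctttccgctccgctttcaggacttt

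Dkc1: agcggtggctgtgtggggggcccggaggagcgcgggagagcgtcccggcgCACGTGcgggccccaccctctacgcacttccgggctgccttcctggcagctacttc

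These stretches are chr7:25102921-25103026 (minus strand) for Utp20, chr1:9398563-9398668 (minus) for Ltv1, chr16:6219783-6219857 (minus) for Gnl3, chr10:57555252-57555357 (plus) for Mybbp1a, chr14:83074246-83074345 (plus) for Pes1 and chrX:157751417-157751522 (plus) for Dkc1. The E-box began 127, 61, 25, 156, 50 and 184 bases before the start site in that order. Of these genes, Utp20, Ltv1, Gnl3 and Mybbp1a rose with phenylephrine, as did 27 of all 32 tested members, and Pes1 and Dkc1 did not pass. With IGF1, Utp20, Mybbp1a, Pes1 and Dkc1 fell, as did 9 of the 32, and Ltv1 and Gnl3 did not pass (values below). The ETS core CCGGAAG, searched on both strands as CCGGAAG and CTTCCGG, occurred in 11 of the 30 promoters, or 36.7%, beside 14.5% of those of tested genes. Among the further biogenesis genes it occurred in 45 of 95 promoters, or 47.4%. The members with it were Polr1c, Rrn3, Fbl, Nop58, Dkc1, Gar1, Nhp2, Nolc1, Ltv1, Nop2 and Ddx21. A match describes the letters only, and no factor's binding was measured.

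Myc was the member that moved most, and it moved in opposite directions with the 2 stimuli. Its level was 22.1, 21.9 and 19.7 CPM in the vehicle samples, 46.4, 43.6 and 42.5 CPM with phenylephrine and 12.2, 7.75 and 9.28 CPM with IGF1. The 3 groups did not overlap, with phenylephrine highest and IGF1 lowest. Myc rose 2.08-fold with phenylephrine (log2 1.06, SE 0.12, edgeR adjusted p = 1.1e-05) and was 2.20-fold lower with IGF1 (log2 -1.14, SE 0.13, adjusted p = 1.5e-05). The direct difference between the stimuli was 4.58-fold (log2 2.20, SE 0.13, adjusted p = 3.6e-08). Without IGF1 replicate 1, the fall with IGF1 was log2 -1.31.

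Of 10 listed genes of the network of Myc partners and antagonists, 8 were tested (Mycl lay below the filter, and Mga had no row). With phenylephrine 1 was higher and 6 were lower, and with IGF1 2 were higher and 5 lower. Over all tested genes 27.9% were higher and 28.9% lower with phenylephrine, and 24.7% and 23.4% with IGF1. Mxi1, which competes with Myc for Max, showed the largest change of the list against vehicle. It lay at 107, 104 and 106 CPM with vehicle, 49.5, 44.2 and 49.3 CPM with phenylephrine and 33.3, 41.2 and 40.0 CPM with IGF1. It was 2.22-fold lower with phenylephrine and 2.77-fold lower with IGF1 (edgeR adjusted p = 7.0e-09 and 8.3e-10), and no treated sample reached the vehicle range. Mxd1 and Mnt, further antagonists, were lower with each stimulus (Mxd1 1.42-fold and 1.33-fold, Mnt 1.24-fold and 1.36-fold), as was the Myc paralog Mycn (1.48-fold and 1.27-fold). Mxd3 fell with phenylephrine (log2 -0.71) and rose with IGF1 (log2 0.51, adjusted p = 0.017), a rise that missed the threshold without vehicle replicate 1 or 2 or IGF1 replicate 3 (0.069 to 0.099). Mxd4 fell with phenylephrine (log2 -0.34), and the common partner Max fell with IGF1 (log2 -0.23) and had a log2 fold change of -0.09 with phenylephrine (adjusted p = 0.27). Mlx, a partner of the Mondo factors, rose 1.54-fold with phenylephrine and 1.15-fold with IGF1. With library size scaling the IGF1 calls of Mlx and Mxd3 ended (adjusted p = 0.074 and 0.053), and Max was lower with phenylephrine (log2 -0.28, adjusted p = 0.0048).

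**Figure D2:**
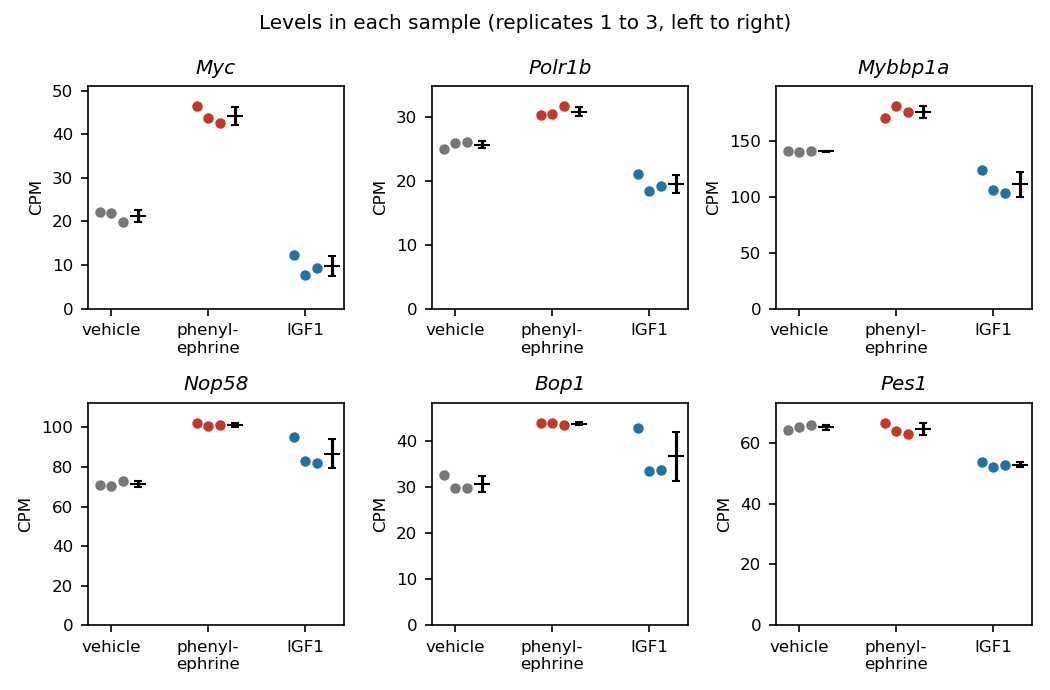
CPM of 6 members in each sample, with replicates 1 to 3 from left to right and the group mean with its SD in black. Myc, Polr1b and Mybbp1a lie above vehicle with phenylephrine and below it with IGF1, whereas Pes1 overlaps vehicle with phenylephrine (62.9 to 66.7 CPM against 64.3 to 65.9 CPM).

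Among Pol I genes, those of the catalytic subunits rose with phenylephrine. The largest subunit, Polr1a, lay at 51.7, 50.4 and 46.9 CPM with vehicle, 63.1, 68.9 and 67.7 CPM with phenylephrine and 57.4, 56.3 and 58.8 CPM with IGF1. It rose with phenylephrine (log2 0.42, SE 0.051, edgeR adjusted p = 5.5e-06) and, by less, with IGF1 (log2 0.21, adjusted p = 0.0029), and the direct difference passed the threshold (log2 0.21, adjusted p = 0.0026). The second subunit, Polr1b, lay at 25.1, 26.0 and 26.1 CPM with vehicle, 30.4, 30.6 and 31.7 CPM with phenylephrine and 21.0, 18.4 and 19.3 CPM with IGF1. Its 3 groups did not overlap, and it rose with phenylephrine (log2 0.26, adjusted p = 0.0020) and fell with IGF1 (log2 -0.40, adjusted p = 1.0e-04). Polr1c, a subunit shared with Pol III, rose 1.33-fold with phenylephrine (adjusted p = 7.3e-05). With IGF1 it lay at 54.5, 43.8 and 47.1 CPM against 42.6 to 44.3 CPM with vehicle (log2 0.15, adjusted p = 0.066). It was log2 0.06 without IGF1 replicate 1 (0.28) and passed the threshold without IGF1 replicate 2 (0.011). Rrn3, which recruits the polymerase, rose 1.11-fold with each stimulus (adjusted p = 0.010 and 0.0087), and the direct difference was log2 -0.01 (SE 0.044, adjusted p = 0.90). Its call with phenylephrine ended without vehicle replicate 1 or 2 (0.0501 and 0.077), and its log2 fold change became -0.05 with scaling by library size only. Its call with IGF1 ended without vehicle replicate 2 (0.061). Ubtf, which binds and opens ribosomal DNA, was lower with phenylephrine at 157 to 159 CPM and with IGF1 at 158 to 167 CPM than with vehicle at 173 to 176 CPM (log2 -0.15 and -0.11, adjusted p = 0.0025 and 0.023). Its IGF1 call ended without vehicle replicate 2 or 3 (0.056 and 0.052).

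The genes of the box C/D snoRNP proteins rose together with phenylephrine. Fibrillarin, Fbl, the methyltransferase of these particles, lay at 40.2, 39.6 and 40.5 CPM with vehicle, 59.9, 57.5 and 59.5 CPM with phenylephrine and 50.5, 42.7 and 40.5 CPM with IGF1. All phenylephrine samples lay above all others, and IGF1 replicate 1 lay between them and the remaining IGF1 samples. Fbl rose 1.47-fold with phenylephrine (log2 0.56, SE 0.065, edgeR adjusted p = 4.5e-06). With IGF1 its log2 fold change was 0.15 (adjusted p = 0.073), which became 0.05 without IGF1 replicate 1 (0.36) and was called without IGF1 replicate 3 (0.020). The core protein Nop58 lay at 71.0, 70.3 and 73.0 CPM with vehicle, 102, 101 and 101 CPM with phenylephrine and 95.2, 82.9 and 82.0 CPM with IGF1. The groups did not overlap, with IGF1 in between, and the rises were 1.42-fold and 1.21-fold (adjusted p = 1.5e-06 and 5.3e-04). Its paralog Nop56 rose 1.26-fold and 1.17-fold (adjusted p = 3.0e-05 and 0.0012). The direct difference for Nop56 was log2 0.11 (adjusted p = 0.069), and it passed the threshold without IGF1 replicate 1 (0.0044).

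The genes of the box H/ACA proteins did not move as a unit. Those of the small core proteins rose with phenylephrine. Gar1 went from 9.05 to 11.2 CPM in the vehicle samples to 15.1 to 16.1 CPM (log2 0.58, SE 0.12, edgeR adjusted p = 0.0010). Nop10 went from 46.8 to 48.8 CPM to 58.2 to 67.1 CPM (log2 0.37, adjusted p = 1.7e-04). With IGF1 both had log2 fold changes near 0 (-0.04 and -0.02, adjusted p = 0.82 and 0.85). Without IGF1 replicate 1 these were -0.21 and -0.08 (adjusted p = 0.077 and 0.19), and without IGF1 replicate 2 they were 0.02 for each. Dyskerin, Dkc1, the pseudouridine synthase of the particle, lay at 84.1, 85.2 and 77.5 CPM with vehicle and 87.7, 82.4 and 80.5 CPM with phenylephrine, and these groups overlapped (log2 0.02, SE 0.063, adjusted p = 0.78). With IGF1 it was lower at 80.4, 68.4 and 69.0 CPM (log2 -0.18, adjusted p = 0.025), a call that ended without vehicle replicate 1 or 2 or IGF1 replicate 2 or 3 (0.072 to 0.084). Without IGF1 replicate 1 it was log2 -0.26 (adjusted p = 3.3e-06). Scaling by library size only turned the phenylephrine value of Dkc1 to log2 -0.17 (adjusted p = 0.013).

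Of the nucleolar scaffold and chaperone genes, Nolc1 rose with phenylephrine, Npm1 fell and Ncl did not pass. Nucleolin, Ncl, lay at 476 to 519 CPM with vehicle, 509 to 533 CPM with phenylephrine and 486 to 515 CPM with IGF1, with overlap between all groups (log2 0.06 and -0.00, edgeR adjusted p = 0.28 and 0.99). The IGF1 value was log2 -0.03 without IGF1 replicate 1 (0.53). Library size scaling gave a phenylephrine value of log2 -0.14 (adjusted p = 0.0082). Its direct difference, log2 0.06, was called without IGF1 replicate 1 (log2 0.08, adjusted p = 0.028). Nucleophosmin, Npm1, a chaperone of ribosome assembly, lay at 563, 572 and 597 CPM with vehicle, 521, 485 and 497 CPM with phenylephrine and 468, 430 and 439 CPM with IGF1. The groups did not overlap, and Npm1 fell with phenylephrine (log2 -0.21, adjusted p = 0.0014) and further with IGF1 (log2 -0.37, adjusted p = 9.8e-06), with a direct difference of log2 0.17 (adjusted p = 0.0062). Npm1 has processed pseudogenes in mammalian genomes, so its counts are uncertain. The snoRNP chaperone Nolc1 lay at 112, 117 and 116 CPM with vehicle, 170, 174 and 170 CPM with phenylephrine and 140, 124 and 121 CPM with IGF1. All groups were apart, with a rise of 1.49-fold with phenylephrine (log2 0.57, adjusted p = 2.8e-07). The rise with IGF1 was log2 0.16 (adjusted p = 0.020) and 0.09 without IGF1 replicate 1 (0.030), and it missed the threshold without any 1 vehicle sample (0.053 to 0.10).

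**Figure D3:**
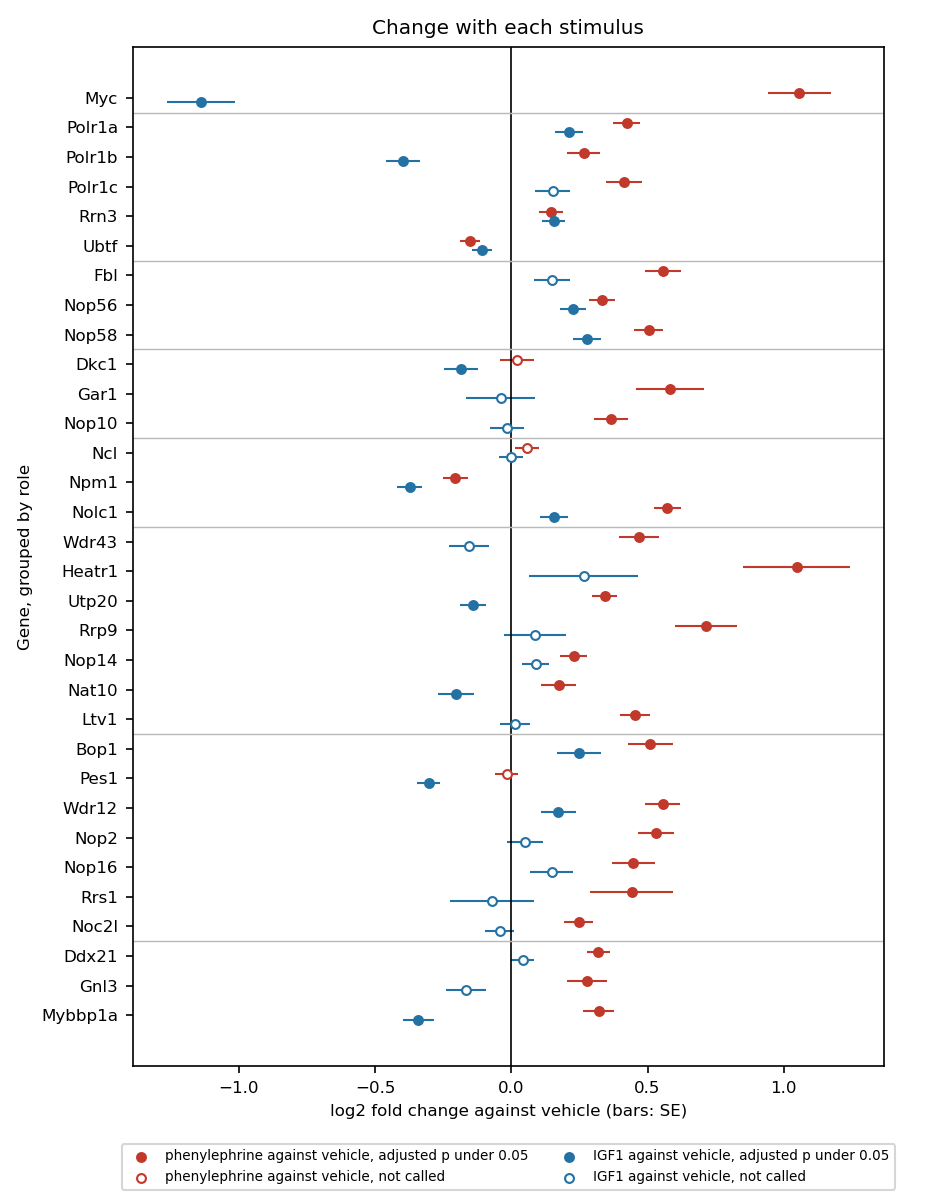
Log2 fold change against vehicle for each tested member, with phenylephrine in red and IGF1 in blue, bars for the SE and filled points for adjusted p under 0.05. Phenylephrine points lie to the right of the IGF1 points for all members but Rrn3 and Ubtf.

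All 7 tested genes of small subunit processing rose with phenylephrine. Rrp9, a protein of the U3 particle that starts cleavage of the precursor, lay at 16.9, 15.6 and 16.9 CPM with vehicle, 27.4, 27.5 and 26.1 CPM with phenylephrine and 22.0, 15.7 and 15.2 CPM with IGF1. It rose 1.64-fold with phenylephrine (log2 0.71, SE 0.11, edgeR adjusted p = 1.4e-04), while the IGF1 samples spread on both sides of vehicle (log2 0.09, adjusted p = 0.57). That value turned to log2 -0.10 (0.29) without IGF1 replicate 1. Heatr1, a factor of Pol I transcription and early processing, had the largest fold change of these 7 but the fewest reads. Its counts were 58, 53 and 69 with vehicle, 68, 84 and 88 with phenylephrine and 52, 64 and 69 with IGF1, which correspond to 1.17 to 1.34, 2.34 to 2.84 and 1.45 to 1.71 CPM. The rise with phenylephrine was 2.07-fold (log2 1.05, SE 0.20, adjusted p = 3.4e-04). Wdr43, a subunit of the early small subunit particle, rose 1.38-fold with phenylephrine, from 62.4 to 69.2 CPM to 89.1 to 93.4 CPM. With IGF1 it lay at 68.2, 55.9 and 54.5 CPM (log2 -0.16, adjusted p = 0.092), and without IGF1 replicate 1 it was lower (log2 -0.26, adjusted p = 4.0e-06). Ltv1, a late export factor, rose 1.37-fold and Nop14, another component of the early particle, 1.17-fold with phenylephrine, and neither passed with IGF1 (log2 0.01 and 0.09). These values were log2 -0.05 and 0.05 without IGF1 replicate 1.

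Utp20 and Nat10 were called in opposite directions with the 2 stimuli, although calls of each ended under some alternatives. Utp20, a large scaffold of the processing particle, lay at 53.0, 54.6 and 49.9 CPM with vehicle, 66.9, 67.5 and 65.0 CPM with phenylephrine and 48.8, 47.8 and 46.2 CPM with IGF1. It was higher with phenylephrine (log2 0.34, edgeR adjusted p = 2.0e-05) and lower with IGF1 (log2 -0.14, adjusted p = 0.023). The IGF1 call ended without vehicle replicate 1 or 2 or IGF1 replicate 3 (0.053 to 0.081). It also ended when only the vehicle and IGF1 samples were fitted (0.052). Nat10, an RNA acetyltransferase, was higher with phenylephrine at 32.5 to 36.6 CPM against 30.4 to 31.5 CPM (log2 0.17, adjusted p = 0.036). That call ended without any 1 vehicle sample, phenylephrine replicate 2 or 3 or IGF1 replicate 3 (0.059 to 0.15). It also ended with a filter of at least 5 CPM in 3 samples (0.053), and the value was log2 -0.02 with scaling by library size only. With IGF1 Nat10 was lower at 24.7 to 29.0 CPM (log2 -0.20, adjusted p = 0.019), a call that ended without vehicle replicate 1 (0.055) or IGF1 replicate 2 (0.078). The direct differences were log2 0.48 for Utp20 and 0.38 for Nat10 (adjusted p = 6.8e-07 and 2.2e-04). For Nop14 the direct difference was log2 0.14 (adjusted p = 0.029) and missed the threshold without vehicle replicate 2, phenylephrine replicate 1 or 2 or IGF1 replicate 2 or 3 (0.051 to 0.13).

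In large subunit processing, 6 of 7 members rose with phenylephrine and Pes1 did not pass. Pes1, Bop1 and Wdr12 encode the PeBoW complex, which is needed for maturation of the large subunit RNAs. Bop1 lay at 32.7, 29.7 and 29.7 CPM with vehicle, 43.8, 43.9 and 43.4 CPM with phenylephrine and 42.7, 33.4 and 33.7 CPM with IGF1. It rose 1.42-fold with phenylephrine (log2 0.51, SE 0.082, edgeR adjusted p = 1.1e-04). Wdr12 lay at 23.7, 25.8 and 23.7 CPM with vehicle, 37.3, 34.6 and 35.7 CPM with phenylephrine and 29.7, 26.8 and 26.1 CPM with IGF1, a 1.47-fold rise with phenylephrine (adjusted p = 3.9e-06). Pes1 lay at 64.3, 65.3 and 65.9 CPM with vehicle, 66.7, 63.9 and 62.9 CPM with phenylephrine and 53.7, 52.0 and 52.9 CPM with IGF1. Its phenylephrine samples lay on both sides of the vehicle range (log2 -0.02, SE 0.042, adjusted p = 0.76), and all IGF1 samples lay below it (log2 -0.30, adjusted p = 3.1e-05). With scaling by library size only, Pes1 was lower with phenylephrine (log2 -0.21, adjusted p = 0.0013).

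With IGF1, Bop1 and Wdr12 were higher by log2 0.25 and 0.17 (edgeR adjusted p = 0.021 and 0.038). For Bop1 the call ended without vehicle replicate 2 or 3 (0.086 and 0.090), and its value was 0.13 without IGF1 replicate 1 (0.048). For Wdr12 it ended without vehicle replicate 1 or 3, phenylephrine replicate 3 or IGF1 replicate 1 or 2 (0.052 to 0.15), and its value was 0.12 without IGF1 replicate 1. The methyltransferase Nop2 rose 1.45-fold with phenylephrine, from 41.2 to 43.1 CPM to 58.8 to 62.8 CPM (adjusted p = 9.1e-06), and lay at 49.7, 40.4 and 41.3 CPM with IGF1 (log2 0.05, adjusted p = 0.56, and -0.04 without IGF1 replicate 1). Nop16, a nucleolar protein known as a Myc target, rose 1.36-fold with phenylephrine (adjusted p = 2.8e-04), and Noc2l, a factor of large subunit transport, 1.19-fold (adjusted p = 0.0012). With IGF1, Nop16 had a log2 fold change of 0.15, which was 0.03 without IGF1 replicate 1 (0.65) and was called without IGF1 replicate 3 (0.042). Noc2l had -0.04 and was called without IGF1 replicate 1 (log2 -0.11, adjusted p = 0.025). Rrs1, which brings the 5S particle to the large subunit, varied more than the others. It lay at 27.4, 26.0 and 26.3 CPM with vehicle, 35.3, 40.6 and 32.2 CPM with phenylephrine and 32.7, 21.4 and 22.5 CPM with IGF1. Its rise with phenylephrine (log2 0.44, SE 0.15, adjusted p = 0.037) missed the threshold without any 1 vehicle sample, without phenylephrine replicate 1 or 2 (0.073 to 0.11) and without a filter on low counts (0.065). With IGF1 it was called as lower only without IGF1 replicate 1 among the alternatives run (log2 -0.28, adjusted p = 0.0011).

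The genes of the remaining nucleolar factors all rose with phenylephrine, by 1.21-fold to 1.25-fold. Mybbp1a, a Myb-binding repressor that also acts on Pol I transcription, lay at 141, 140 and 141 CPM with vehicle, 170, 181 and 176 CPM with phenylephrine and 124, 106 and 103 CPM with IGF1. Its groups did not overlap, and it rose with phenylephrine (log2 0.32, SE 0.057, edgeR adjusted p = 2.3e-04) and fell with IGF1 (log2 -0.34, SE 0.057, adjusted p = 1.9e-04). The direct difference was log2 0.66 (adjusted p = 2.1e-07), the same as that of Polr1b (log2 0.66, adjusted p = 5.2e-07). The RNA helicase Ddx21 rose with phenylephrine to 96.2 to 102 CPM from 78.4 to 82.7 CPM (log2 0.32, adjusted p = 1.6e-05) and overlapped vehicle with IGF1 (log2 0.04, adjusted p = 0.45). Nucleostemin, Gnl3, a nucleolar GTPase, rose with phenylephrine (log2 0.28, adjusted p = 0.0056). With IGF1 it lay at 52.1, 41.4 and 41.3 CPM against 48.0 to 51.6 CPM with vehicle (log2 -0.17, adjusted p = 0.080), and it was lower without IGF1 replicate 1 (log2 -0.28, adjusted p = 2.7e-06) and by limma-voom (0.036).

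The direct comparison tested where the stimuli differed. Of the 28 members called, 5 had risen with phenylephrine and fallen with IGF1 (Myc, Polr1b, Utp20, Nat10 and Mybbp1a), 15 had risen with phenylephrine and not passed with IGF1, and 5 had risen with each but more with phenylephrine (Polr1a, Nop58, Nolc1, Bop1 and Wdr12). The other called members were Npm1, which fell with each, and Dkc1 and Pes1, which passed against vehicle with IGF1 alone. These groups rest on comparisons that share the vehicle samples, and the phenylephrine call of Nat10 ended under several alternatives. So did the IGF1 calls of Utp20, Nolc1, Bop1 and Wdr12. Of the 15, Wdr43, Rrs1, Noc2l and Gnl3 were called lower with IGF1 when IGF1 replicate 1 was left out. The 4 members without a call were Rrn3, Ubtf, Nop56 and Ncl. Among called members, the direct calls of Dkc1, Bop1 and Rrs1 (log2 0.21, 0.26 and 0.51) each missed the threshold without IGF1 replicate 2 or 3 (edgeR adjusted p = 0.059 to 0.082). That of Dkc1 also ended without phenylephrine replicate 1 (0.069) and that of Rrs1 without phenylephrine replicate 2 (0.066).

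**Figure D4:**
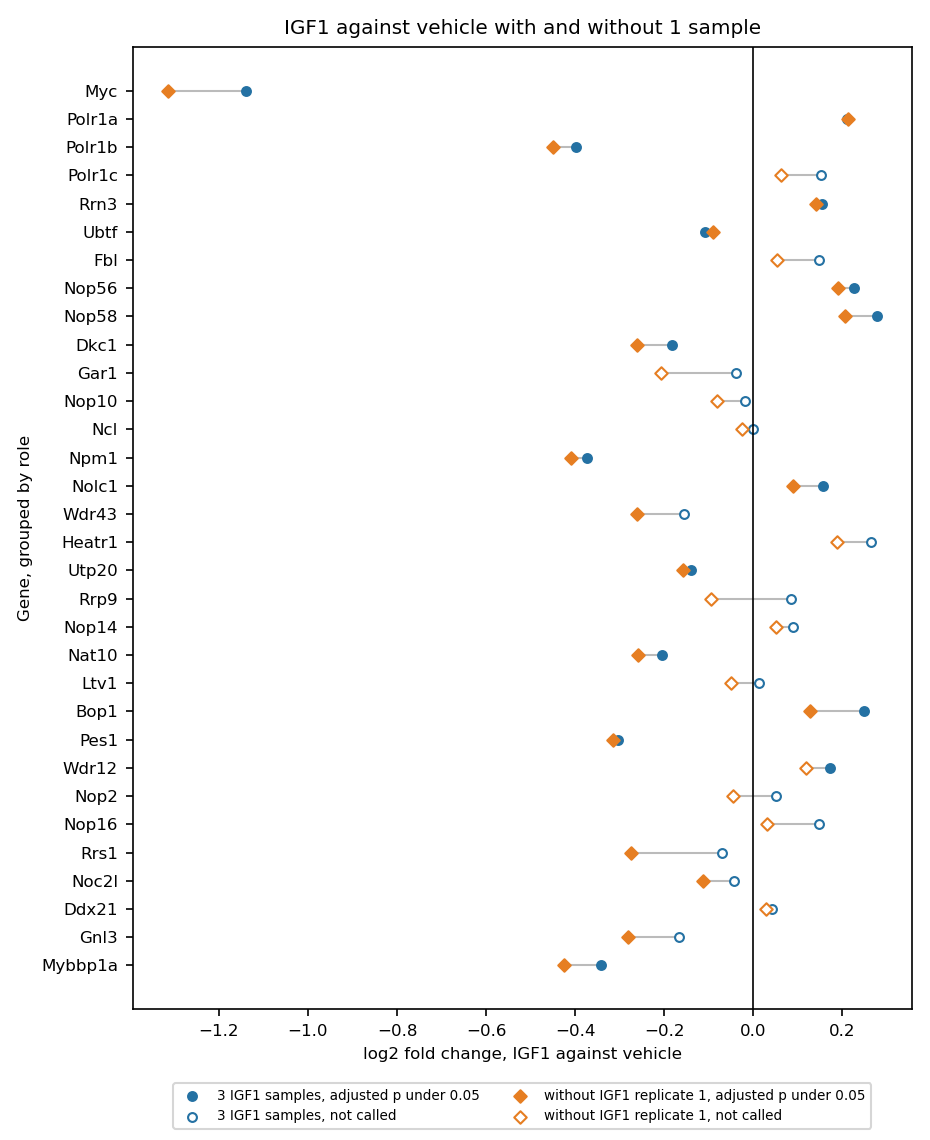
Log2 fold change of each tested member with IGF1 against vehicle, with all 3 IGF1 samples (blue circles) and without IGF1 replicate 1 (orange diamonds), filled where adjusted p was under 0.05. Most diamonds lie to the left of the circles, and 13 members are called lower without that sample in place of 9.

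The wider pathway was read from a further list. Of 105 further listed genes of Pol I, snoRNPs and subunit assembly, 93 had a row and all 93 were tested. With phenylephrine 62 were higher and 6 lower, with a median log2 fold change of 0.28, and with IGF1 9 were higher and 13 lower, with a median of -0.02. Over all tested genes 27.9% were higher and 28.9% lower with phenylephrine, 24.7% and 23.4% with IGF1, and 27.1% in each direction when the stimuli were compared. In the direct comparison 72 were higher with phenylephrine and none was lower, with a median of 0.30. There, 76 passed in either direction at an unadjusted p under 0.05, beside 7003 of all 11873 tested genes. DESeq2 and limma-voom also gave 0 lower. Without IGF1 replicate 1, IGF1 gave 7 higher and 28 lower, and without vehicle replicate 3 it gave 5 and 8. Without vehicle replicate 2 it gave 5 higher, and without IGF1 replicate 3 it gave 8 lower. With phenylephrine, 2 in place of 6 were lower without phenylephrine replicate 2. In the direct comparison, 2 were lower without IGF1 replicate 2 and 1 without phenylephrine replicate 1. Library size scaling gave 31 higher and 12 lower with phenylephrine, 4 and 29 with IGF1, and 47 and 2 in the direct comparison. It also lowered the all-gene medians, to -0.22, -0.08 and -0.11 in that order.

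By role, 6 of 8 further Pol I genes rose with phenylephrine and none fell, and 1 rose with IGF1. The Pol I subunit genes Cd3eap and Polr1e led these. Cd3eap lay at 9.46, 9.53 and 9.91 CPM with vehicle, 18.3, 18.1 and 18.1 CPM with phenylephrine and 10.5, 7.88 and 8.28 CPM with IGF1, a 1.88-fold rise with phenylephrine (edgeR adjusted p = 1.7e-06) and a direct difference of 2.06-fold. Its IGF1 value was log2 -0.13 (adjusted p = 0.31), and it was lower without IGF1 replicate 1 (log2 -0.25, adjusted p = 0.022). Polr1e rose 1.68-fold with phenylephrine and by log2 0.34 with IGF1 (adjusted p = 0.018), and the latter missed the threshold without IGF1 replicate 1 (log2 0.19) or any 1 vehicle sample (0.052 to 0.063). Of 8 further snoRNP genes, 3 rose with phenylephrine. Nhp2l1, a protein of the box C/D core, rose 1.26-fold and Naf1, an assembly factor of box H/ACA particles, 1.32-fold (adjusted p = 0.0012 and 0.015). The call of Naf1 ended without vehicle replicate 3 (0.070) or phenylephrine replicate 2 (0.098). Library size scaling ended the calls of Naf1 (log2 0.20, adjusted p = 0.22) and Nhp2l1 (log2 0.14, adjusted p = 0.082) and the IGF1 call of Polr1e (0.051).

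Among 36 further small subunit genes, 26 rose and 2 fell with phenylephrine, against 6 and 5 with IGF1. Bysl, which acts late in assembly of the small subunit, lay at 33.5, 31.4 and 32.3 CPM with vehicle, 67.1, 65.9 and 62.4 CPM with phenylephrine and 57.4, 42.2 and 43.3 CPM with IGF1. It rose 2.01-fold and 1.46-fold (edgeR adjusted p = 1.1e-05 and 0.0012). The methyltransferase Emg1 rose 1.57-fold and 1.45-fold, and its direct difference was log2 0.12 (adjusted p = 0.076, and 0.047 without IGF1 replicate 1). Wdr46 rose 1.66-fold with phenylephrine and had a log2 fold change of -0.00 with IGF1 (adjusted p = 0.99), and -0.16 without IGF1 replicate 1 (0.026). Wdr3 was lower by log2 -0.14 with phenylephrine and -0.32 with IGF1. The former call ended without vehicle replicate 2 (0.056) or phenylephrine replicate 2 (0.11). The helicase gene Ddx47 was lower with phenylephrine (log2 -0.16, adjusted p = 0.019), a call that ended without vehicle replicate 2 or phenylephrine replicate 2 or 3 (0.057 to 0.099).

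Among 41 further large subunit genes, 27 rose and 4 fell with phenylephrine, against 2 and 7 with IGF1. Mrto4, which helps to assemble the ribosomal stalk, lay at 23.2, 20.8 and 22.1 CPM with vehicle, 38.1, 39.1 and 38.5 CPM with phenylephrine and 28.4, 25.7 and 25.0 CPM with IGF1. Its rises were 1.75-fold and 1.19-fold (edgeR adjusted p = 7.9e-08 and 0.0039), and its groups did not overlap. Rrp8 rose 1.66-fold and Ppan 1.64-fold with phenylephrine, and neither passed with IGF1 (log2 -0.02 and -0.12). Ppan was lower with IGF1 without IGF1 replicate 1 (log2 -0.26, adjusted p = 0.0018). Nmd3, the export adaptor of the large subunit, was 1.21-fold lower with phenylephrine and 1.20-fold lower with IGF1 (adjusted p = 3.9e-04 and 8.1e-04). Gltscr2, which acts in large subunit maturation, was 1.14-fold and 1.32-fold lower.

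Other gene lists moved with the groups, and their part in these results was not tested. All 16 tested cell cycle genes rose with IGF1 (median log2 1.09), and with phenylephrine 1 rose and 11 fell. Their summed level was 756 to 878 CPM with vehicle, 621 to 670 CPM with phenylephrine and 1514 to 1732 CPM with IGF1. Cardiomyocyte markers summed to 50665 to 54657 CPM with vehicle and 81411 to 81853 CPM with phenylephrine, and to 80758, 56830 and 58165 CPM in IGF1 replicates 1, 2 and 3. Of the 11 markers, 7 were higher and 4 lower with phenylephrine (Tnni3, Ryr2, Pln and Mybpc3), and 6 higher and 1 lower with IGF1. The cardiac actin gene Actc1 lay at 5873 to 6200 CPM with vehicle and 18191 to 18600 CPM with phenylephrine, and at 18326, 8292 and 8631 CPM in the IGF1 replicates. These 5 genes were chosen for mention after their values were seen. IGF1 replicate 1 was thus close to the phenylephrine samples in the sum of the cardiomyocyte markers. It was not close to them in the median of that list, at log2 0.59 above vehicle beside 0.29 to 0.31 with phenylephrine. In the members' own medians it stood at log2 0.15 above vehicle, between the phenylephrine samples (0.33 to 0.40) and the other IGF1 samples (-0.07 and -0.05). Of other cell types, 4 of 8 markers of smooth muscle and pericytes were higher and 1 lower with phenylephrine, and the list summed to 1872 to 1975 CPM with vehicle, 2752 to 2814 CPM with phenylephrine and 1689 to 2272 CPM with IGF1. Fibroblast markers summed to 5084 to 6077, 4724 to 4819 and 5963 to 6884 CPM. Endothelial markers summed to 69.5 to 78.4, 56.7 to 68.1 and 28.3 to 34.4 CPM, and leukocyte markers to 73.4 to 83.5, 68.2 to 87.7 and 66.9 to 70.5 CPM, in the same order of groups. With phenylephrine, 1 of 9 tested fibroblast markers was higher and 4 were lower, and 1 of 8 endothelial markers was higher and 1 lower. Among 7 tested leukocyte markers, 1 was lower with phenylephrine. With IGF1, 4 fibroblast markers were higher and 1 lower, 5 endothelial markers lower and 1 leukocyte marker lower. Beside the counts of all these lists, 27.9% of all tested genes were higher and 28.9% lower with phenylephrine. The shares with IGF1 were 24.7% and 23.4%. Of the listed markers of other cell types, only Cd163 was at 0 in any sample, and the fibroblast gene Col1a2 lay near 0 (0.0343 to 0.244 CPM). Cd163 and Col1a2 were likewise chosen after their values were seen, and whether the counts of Col1a2 reflect its expression was not tested.

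**Figure D5:**
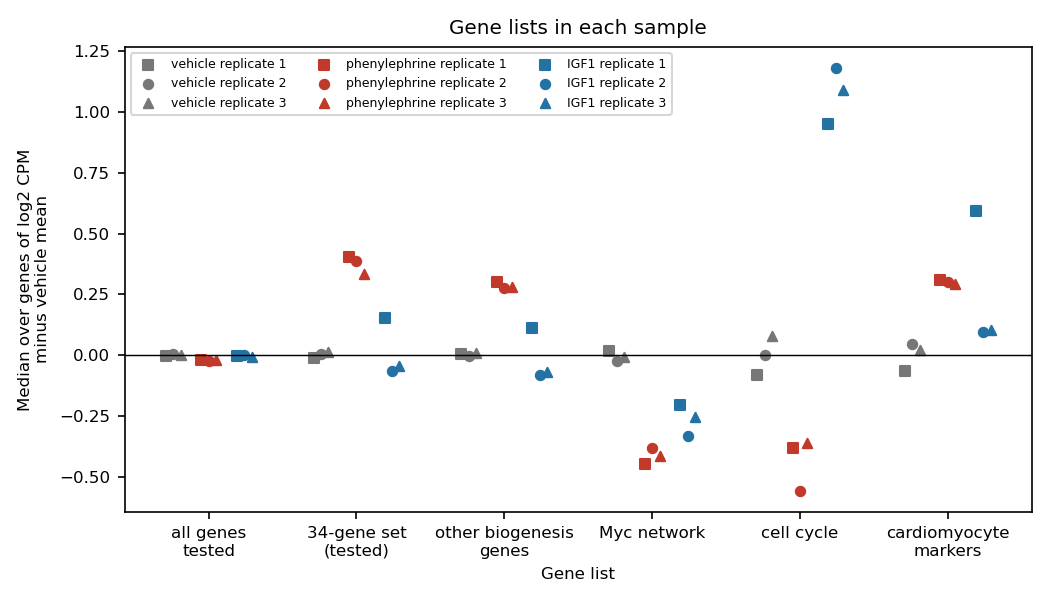
Median over the tested genes of each list of log2 CPM minus the vehicle mean, for each sample, with colours for groups and marker shapes for replicates. The members and the other biogenesis genes are highest in the phenylephrine samples, the cell cycle genes are highest with IGF1, and IGF1 replicate 1 (blue square) lies above the other IGF1 samples in both biogenesis lists.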

How the data were processed

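The authors deposited raw read counts per gene for 9 samples, whole numbers with no normalization, and build rn5 and the tools HTSeq, STAR and DESeq are listed, per the submitters' processing notes. Their versions and the use of strand are not given in the sources used here. Libraries were made with a NuGEN Ovation kit, per the labels' protocols. Groups and replicate numbers came from sample titles.

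Genes passing filterByExpr (minimum count 10, minimum total 15) were normalized by TMM and tested with edgeR 4.0.16 (R 4.3.3): a robust quasi-likelihood fit of group over all 9 samples, a quasi-likelihood F test for each of 3 comparisons, and Benjamini-Hochberg adjustment over all genes tested (threshold 0.05). The SE was taken as |log2 fold change| over the root of the F statistic, and reflects all 9 samples. CPM used the TMM factors. Sample medians used log2 CPM with a prior count of 2.

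Members and lists were chosen with earlier results of these data known. All tested members are named. From each further biogenesis list, the naming rule took the 2 largest rises and 2 largest falls called per comparison, and all of the Myc network, from which the text gives a selection. The ETS motif was added after the count table had been opened. All 34 symbols matched RefSeq (GRCr8), 30 with a promoter. Alternatives were DESeq2 1.42.0, limma-voom (limma 3.58.1), RLE factors, library size only, no filter, at least 5 CPM in 3 samples, only the 2 groups compared, a replicate block, and leaving out each sample. The test was checked on simulated data in which no sample was set apart from its group.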

Additional observations from a re-analysis of the deposited data

How the results depend on the processing

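Of the members' values under all alternatives, 1509 kept their direction and side of the threshold, 72 lost and 17 gained a call, and 31 changed sign. Of the values of the other named genes, 1349 kept both, 37 lost and 18 gained a call, and 21 changed sign. Changed log2 values are given here. With library size scaling they were, for phenylephrine, Rrn3 -0.047, Dkc1 -0.17, Ncl -0.14, Nat10 -0.021, Rrp7a -0.18 and Znhit6 -0.070, for IGF1, Rrp9 -0.0029, Ltv1 -0.073, Nop2 -0.036, Ddx21 -0.042 and Mxd4 -0.023, and directly, Nop56 -0.0010 and Ncl -0.050. With IGF1, Ncl was 0.0034 by DESeq2, 0.0035 with RLE factors and 0.0018 with no filter, and Wdr46 0.0051, 0.0019 and 0.00012. With the stricter filter, Rrp7a was -0.0028 with phenylephrine. Leaving out 1 sample changed signs within these ranges: with phenylephrine, Rrp7a -0.069 to 0.098, Dkc1 -0.031 to 0.049 and Pes1 -0.041 to 0.0017, with IGF1, Ltv1 -0.050 to 0.039, Gar1 -0.21 to 0.050, Ncl -0.042 to 0.022, Nhp2l1 -0.089 to 0.043, Twistnb -0.088 to 0.028, Wdr46 -0.16 to 0.085, Rrp9 -0.095 to 0.17, Nop2 -0.044 to 0.097, Nop10 -0.080 to 0.024, Rrs1 -0.28 to 0.033, Rrp8 -0.097 to 0.012 and Naf1 -0.25 to 0.00042, and directly, Nmd3 -0.080 to 0.037 and Rrn3 -0.021 to 0.0066. Library size scaling gave, for phenylephrine, 1751 of all genes higher and 5696 lower and 5 members lower, so that all calls leaned lower. For IGF1 it gave 2 members higher, with an all-gene median of -0.08. For the direct comparison it gave 2132 of all genes higher and 1 member lower. When only the 2 groups compared were fitted, IGF1 gave 4 members higher. That fit ended the IGF1 calls of Dkc1, Nolc1, Utp20, Bop1 and Wdr12 (edgeR adjusted p = 0.0513 to 0.0665). It also ended the direct calls of Nop14 and Rrs1 (0.059 and 0.0557). Leaving out 1 sample gave 24 to 27 members higher and 2 lower with phenylephrine, 4 to 9 higher and 6 to 13 lower with IGF1, and 24 to 30 higher and 0 lower directly.

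The replicate number as a block gave 27 members higher and 2 lower with phenylephrine, 8 and 9 with IGF1, and 29 and 0 directly. It added calls of Polr1c with IGF1 (0.045) and Nop56 directly (0.048), by edgeR adjusted p. Deviations of same-numbered samples correlated at -0.085 to 0.021, so no pairing by number was seen. With 3 samples per group these values cannot decide the question, and the labels do not say whether same-numbered samples shared a preparation. Low counts limit Heatr1, and Nhp2 could not be tested.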
